A study of Saccharomyces cerevisiae with 4 samples.

Results

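The transcripts described here encode 31 structural subunits of the budding yeast kinetochore, chosen by gene name or systematic ID from a list of subunits in 6 groups. They are 31 of 6664 nuclear genes with a row in the deposited tables, and every one had a value in every library. The groups are 7 inner subunits, 4 subunits of COMA, 4 of the Mtw1 complex, 2 of the Spc105 complex, 4 of the Ndc80 complex and 10 of the Dam1 complex.

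The cells were Saccharomyces cerevisiae of the SK1 background, which sporulates efficiently, at 4 h in sporulation medium (0.3% potassium acetate, OD600 of 1.9, 30 °C). One strain lacked NDT80 (ndt80, 2 samples) and the other lacked both NDT80 and PCH2 (ndt80pch2, 2 samples). Ndt80 is the transcription factor that takes cells out of meiotic prophase, so its absence, shared by both strains, holds cells there. Pch2 is an AAA+ ATPase that acts on meiotic chromosome axes, and the study asked how it associates with chromatin in this stage. Nothing in the labels states that separate cultures gave the replicate samples, and p-values therefore measure only how far these samples differ, which may be technical.

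The kinetochore joins the centromere to spindle microtubules. In yeast the centromeric histone Cse4 and the Mif2 protein anchor it to DNA, COMA and the Mtw1 complex bridge to the outer layer, and the Spc105, Ndc80 and Dam1 complexes face the microtubule. In meiotic prophase the outer layer is known to be taken apart, and NDC80 is known for a long, 5′-extended transcript (NDC80luti) that is made in this stage, is not translated into Ndc80 protein and shuts off the shorter coding mRNA. Ndt80 later drives the shorter mRNA through a middle sporulation element, the DNA sequence that this factor binds.

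The libraries held 1655184 to 2305072 recovered reads over nuclear genes. Levels are given as TPM for 2 ndt80 libraries, A and B, and 2 ndt80pch2 libraries, C and D. These are reads per coding length, on a scale for each library that was solved from the deposited values. Library A alone also held 18 mitochondrial genes (67253 reads), so its scale may cover a different set of genes. The letters only name the libraries, since the values do not tie a library to a replicate number. Reads on PCH2 numbered 710 (A), 776 (B), 0 (C) and 0 (D), and NDT80 had none in any library. Both deletions were therefore as labelled.

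NDC80 was the most abundant of the 31 transcripts in every library, and its own complex did not share its level. It stood at 337, 370.5, 391 and 408 TPM in libraries A to D, while NUF2, SPC24 and SPC25 lay between 38.3 and 114.9 TPM. Most other kinetochore transcripts lay below the median of the genes tested. The median over the members was 37.0, 32.5, 30.7 and 31.4 TPM, against 58.2, 58.3, 51.9 and 50.3 TPM over the 5754 genes tested, and 7, 7, 8 and 7 members lay above that median. In bulk samples, fewer cells that make a transcript and less of it per cell cannot be told apart.

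**Figure D1:**
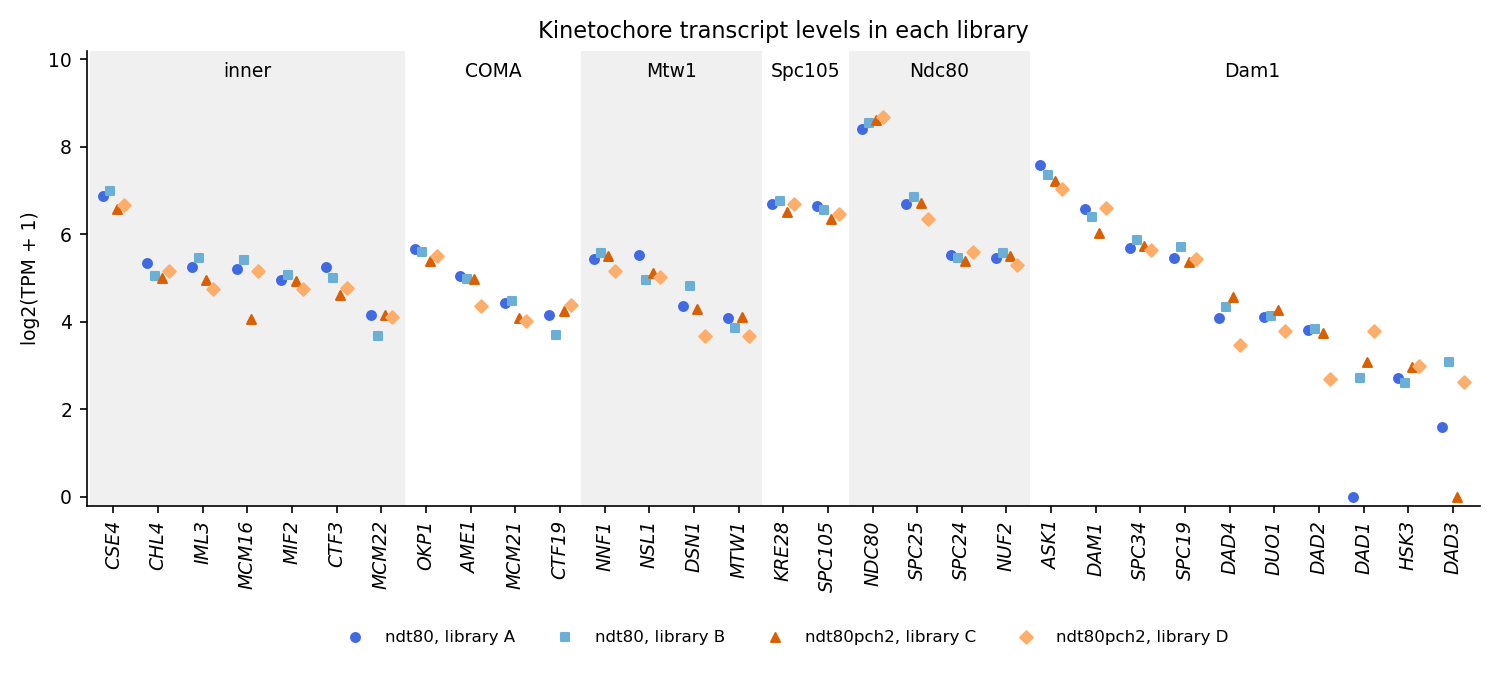
Level of each kinetochore transcript as log2(TPM + 1), grouped by subcomplex, with 1 point per library (blue, ndt80; orange, ndt80pch2). NDC80 is the highest in all 4 libraries, and DAD1, HSK3 and DAD3 at the right have the lowest means.

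No kinetochore transcript passed the test between the strains. By limma-trend over all tested genes with Benjamini-Hochberg adjustment, 0 of the 31 had an adjusted p under 0.05, where 0.0174% of all genes did (PCH2 alone, limma adjusted p = 0.0001118). The smallest adjusted p of a member was 0.2863 by limma-trend, for IML3. limma-voom on the recovered reads also called 0 members, where 0.452% of all genes were called, and its smallest adjusted p was 0.2752. At an unadjusted p under 0.05, 4 members were lower in ndt80pch2 (12.9%, against 13.1% of all genes) and 0 were higher (against 2.69%). The 2 strains had no overlap between libraries for 12 members that were lower in ndt80pch2 (38.7%, against 42.4% of all genes) and for 4 that were higher (12.9%, against 9.38%). These shares are near those of all genes.

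The median log2 fold change of all tested genes, ndt80pch2 over ndt80, was -0.15, so fold changes below are relative to it. The p-values are for the change without that correction. Statements that libraries were higher, lower or overlapping compare TPM, also without it, so the shift of all genes is part of them. On the relative scale the members had a median of -0.03, with 12 above and 19 below the median of all genes. Without library D their median was 0.030. For the 22 members with at least 20 reads in every library, the relative log2 fold change ran from -0.46 to 0.54, with a median standard error of 0.16. The 2 ndt80 libraries differed by a median absolute value of 0.15 across the members on the log2 scale (0.11 over all genes), and the 2 ndt80pch2 libraries by 0.17 (0.17 over all genes).

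**Figure D2:**
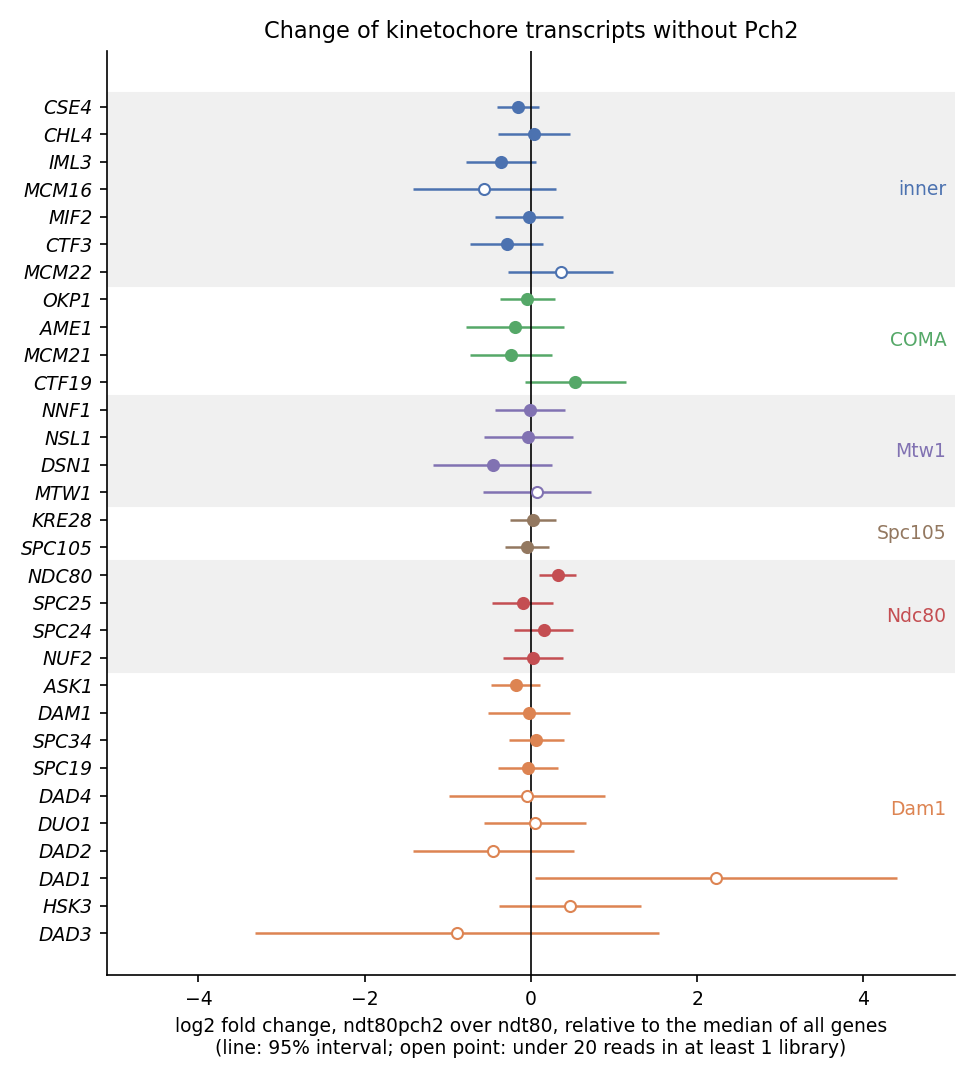
Log2 fold change of each member, ndt80pch2 over ndt80, relative to the median of all genes. Lines are 95% intervals from limma, and open points mark members with under 20 reads in at least 1 library. Most lines cross 0; those of NDC80 and DAD1 do not, and neither gene passed the test over all genes.

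The inner subunits sit on or next to centromeric chromatin. CSE4, the centromeric histone H3 variant, was the highest of the 7 at 116, 127, 95.2 and 102 TPM. MCM22, a subunit of the Ctf3 subcomplex, was the lowest by the mean, at 17.0, 11.8, 16.8 and 16.2 TPM, from 16 to 21 reads, though MCM16 was below it in library C. CSE4 was higher in both ndt80 libraries than in either ndt80pch2 library, whereas those of MCM22 overlapped. The relative log2 fold change of CSE4 was -0.16 (SE 0.11; limma adjusted p = 0.289). CSE4 stood at the 69.0th to 74.8th percentile of all tested genes, depending on the library.

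IML3, whose product pairs with Chl4 and helps hold cohesin near centromeres, had the smallest unadjusted p of any member by limma-trend (0.02446). This p is for the change that includes the shift of all genes. With median-of-ratios factors, which take that shift out, its unadjusted p by limma was 0.0725. The smallest of any member was then that of NDC80 (0.01386). IML3 was at 37.0, 43.2, 30.0 and 25.8 TPM, so that both ndt80 libraries were higher. The relative log2 fold change was -0.36 (SE 0.17; limma adjusted p = 0.2863). CHL4, its partner, was at 39.7, 32.0, 31.1 and 35.0 TPM, with overlapping groups. CTF3, which gives its name to the Ctf3 subcomplex, was at 37.0, 31.1, 23.3 and 26.2 TPM, higher in both ndt80 libraries (relative log2 fold change -0.29, SE 0.18; limma adjusted p = 0.3128).

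MCM16, another Ctf3 subcomplex member, differed most between the libraries of 1 strain in this group: it had 34 and 43 reads in ndt80 and 12 and 26 in ndt80pch2. MIF2, the yeast CENP-C, which binds the Cse4 nucleosome and the Mtw1 complex, was at 30.3, 32.5, 29.4 and 26.1 TPM. Its 2 groups stood apart by less than 1 TPM between libraries A and C. Across the 7 inner subunits the median relative log2 fold change was -0.16, with 2 above the median of all genes.

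The 4 COMA subunits link the inner chromatin-bound layer to the Mtw1 complex. OKP1 was the highest at 50.0, 47.4, 40.9 and 44.3 TPM, and its relative log2 fold change was -0.04 (SE 0.14; limma adjusted p = 0.4825). CTF19 was the lowest by the mean of the 4 libraries, at 16.8, 12.0, 18.0 and 19.8 TPM from 25 to 32 reads. In TPM, not corrected for the shift of all genes, both ndt80pch2 libraries of CTF19 were above both ndt80 libraries, and OKP1 stood the other way around. CTF19 had the highest relative log2 fold change of the 22 better-covered members, 0.54 (SE 0.25; limma adjusted p = 0.446).

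CTF19 shares 27 bases with IRC15 on the opposite strand, which had 79 to 122 reads. Whether counting used the strand is not stated in the labels, so reads from the shared bases cannot be told apart. MCM21 was at 20.5, 21.1, 16.1 and 15.2 TPM, above CTF19 in the ndt80 libraries and below it in the ndt80pch2 libraries. AME1 lay between 19.5 and 32.2 TPM. The ratio of the highest to the lowest COMA subunit was 2.98, 3.96, 2.54 and 2.92 in libraries A to D.

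The Mtw1 complex, the platform on which the outer layer is built, had 4 transcripts, all below the median of tested genes in every library. The highest was 2.84, 3.46, 2.73 and 2.97 times the lowest in libraries A to D. NNF1 was the highest by the mean, at 42.2, 46.5, 44.8 and 35.0 TPM, though NSL1 exceeded it in library A. MTW1 was the lowest at 16.0, 13.4, 16.4 and 11.8 TPM, from 14 to 24 reads. For both genes the strains overlapped, with relative log2 fold changes of -0.01 for NNF1 (limma adjusted p = 0.6367) and 0.07 for MTW1 (limma adjusted p = 0.895). NSL1 lay between 30.2 and 45.6 TPM. DSN1, the subunit through which Aurora B is known to control binding to the inner layer, had 58 and 89 reads in ndt80 and 45 and 28 in ndt80pch2. DSN1 had the lowest relative log2 fold change of the 22 better-covered members, -0.46 (SE 0.29; limma adjusted p = 0.3468).

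The Spc105 complex recruits the spindle checkpoint through its large subunit. Its 2 transcripts were close to each other and well covered. KRE28 was at 102, 107, 90.0 and 102 TPM, and SPC105 at 99.2, 93.4, 80.3 and 87.9 TPM. KRE28 exceeded SPC105 in every library, by a ratio of 1.03, 1.15, 1.12 and 1.16. The relative log2 fold changes were 0.03 for KRE28 (95% interval -0.25 to 0.30; limma adjusted p = 0.5822) and -0.05 for SPC105 (95% interval -0.31 to 0.22; limma adjusted p = 0.3971).

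The Ndc80 complex is the main microtubule-binding rod of the kinetochore, in which Ndc80 pairs with Nuf2 and Spc24 with Spc25. NDC80 had 1202, 1447, 1137 and 1159 reads, from 32.3% to 40.4% of all reads on the members. It stood at the 91.9th to 93.7th percentile of tested genes. NUF2 was at 43.3, 46.6, 44.2 and 38.3 TPM. SPC24 was at 45.3, 43.0, 41.1 and 47.8 TPM, and SPC25 at 102, 114.9, 104 and 80.1 TPM. SPC24 and NUF2 were close to each other, SPC25 was above both in every library, and NDC80 was far above all 3.

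The ratio of NDC80 to NUF2, per coding length, was 7.77, 7.94, 8.84 and 10.7 in libraries A to D. The ratio to SPC24 was 7.43, 8.61, 9.5 and 8.53, and that to SPC25 was 3.3, 3.22, 3.76 and 5.09. Over the geometric mean of the 3 partners it was 5.75 and 6.04 in ndt80 and 6.81 and 7.74 in ndt80pch2, higher in both ndt80pch2 libraries (two-sided exact permutation p = 0.3333, which is the smallest that 2 against 2 libraries allow).

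Both ndt80pch2 libraries of NDC80 lay above both ndt80 libraries, at 399.5 ± 12.2 TPM against 354 ± 23.9 TPM (SD, n = 2). The relative log2 fold change was 0.32 (SE 0.092; 95% interval 0.10 to 0.55; limma adjusted p = 0.3661, and 0.2841 to 0.8067 over the alternatives). With median-of-ratios factors, which take out the shift of all genes, the unadjusted p for NDC80 by limma was 0.01386 and the adjusted p 0.3545. SPC24 (0.15), NUF2 (0.02) and SPC25 (-0.10) had relative log2 fold changes whose 95% intervals include 0, with limma adjusted p-values of 0.9849, 0.6714 and 0.4282. Reads over the coding sequence cannot tell the 5′-extended NDC80 transcript from the shorter one, since both hold the coding sequence. The share of each in these levels was not tested.

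**Figure D3:**
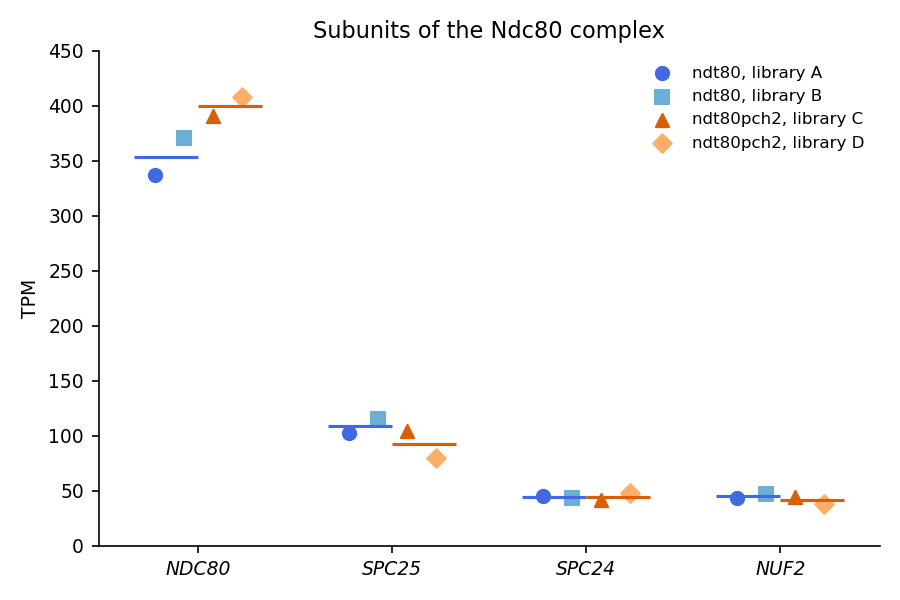
TPM of the 4 subunits of the Ndc80 complex in each library, with horizontal lines at the mean of each strain (n = 2). NDC80 lies between 337 and 408 TPM, its partners at 114.9 TPM or below.

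The promoters were searched because the highest transcript of the set, NDC80, is a known Ndt80 target and both strains lack Ndt80. The letters GNCACAAA, a form of the middle sporulation element, were looked for on both strands in the 250 bases before each start codon. The reference was R64, which is the S288C strain and not SK1. Only exact matches were searched, so a gene without a match may still hold an element with other letters. The letters GNCACAAA occur for 3 of the 31 members (9.68%) and for 3.33% of all 6664 genes. With 1000 bases the shares are 12.9% and 13.1%. Each sequence below is 30 bases on the strand of the gene, with the matched letters in capitals. The match begins 195 bases before the NDC80 start codon (chrIX:77868-77897, plus strand), 10 bases before that of ASK1 (chrXI:340538-340567, minus strand) and 25 bases before that of HSK3 (chrXI:185019-185048, minus strand).
NDC80: ggaatgatataGTCACAAAactaatatttc
ASK1: aagggattgttGACACAAAaaatggattct
HSK3: aaaacgaagagGACACAAAgaatttcaggc
These 3 genes span the range of levels: NDC80 and ASK1 were the first and second most abundant members, and HSK3 was next to the lowest. A match is a description of the letters and not a binding site.

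The core letters of URS1, GCCGCC, which the meiotic regulator Ume6 binds, occur within 250 bases for 0 members, against 4.2% of all genes. Within 1000 bases they occur for IML3, NNF1, SPC25 and SPC34 (12.9%, against 18.1% of all genes). For NDC80 these letters are not in either window. Only exact matches were searched, so a gene without a match may still hold a URS1 site with other letters.

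The letters ACGCGT, the MluI cell cycle box bound by the MBF factor of G1/S transcription, occur within 250 bases for 3 members (9.68%, against 2.76% of all genes). With 1000 bases the shares are close, 9.68% and 8.16%. The motif reads the same on both strands. The 3 sequences shown are all the matches of the members within 250 bases. They lie at chrXI:273287-273316 for MIF2 (95 bases before the start codon), chrXVI:517554-517583 for CTF19 (85 bases) and chrI:79600-79629 for MTW1 (106 bases), all on the plus strand.
MIF2: aaaaataatataACGCGTtagaaatggtga
CTF19: gaaaaatcagaaACGCGTaatttagactta
MTW1: aatttttatagtACGCGTaaacaaaaaagg
All 3 lay below the median of tested genes in all 4 libraries, at 26.1 to 32.5 TPM for MIF2, 12.0 to 19.8 TPM for CTF19 and 11.8 to 16.4 TPM for MTW1. So did most members: 7, 7, 8 and 7 of the 31 lay above that median in libraries A to D. None of the 3 motifs searched overlaps another in these windows of the members shown.

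The Dam1 complex forms rings that couple kinetochores to microtubule ends. Its 10 transcripts spread more widely than those of any other subcomplex in libraries B and D, where every member had reads: the highest was 32.2 and 25.6 times the lowest. The lowest member there had only 2 reads (HSK3 in B, DAD3 in D). With members of at most 402 coding bases left out, the Dam1 ratios were 9.94 (B) and 10.3 (D). The inner subunits in B (10.8) and the Ndc80 complex in D (10.7) then spread more widely. ASK1 was the highest at 191, 163, 149 and 131 TPM, the second most abundant member of all 31 in every library. DAD3 was the lowest by the mean, with 1, 4, 0 and 2 reads (2.04, 7.46, 0 and 5.13 TPM). ASK1 was higher in both ndt80 libraries, with a relative log2 fold change of -0.18 (SE 0.12; limma adjusted p = 0.2967). ASK1 shares 279 bases with YKL053W on the opposite strand, a reading frame with 0 reads in all 4 libraries. MTW1 shares 125 bases with YAL034C-B and DAD4 15 bases with YDR320W-B, both on the opposite strand and both with 0 reads. As for CTF19, the labels do not state whether counting used the strand, so these 0 counts leave the shared bases unresolved.

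DAM1, the microtubule-binding subunit that Aurora B phosphorylates, was at 95.2, 82.9, 64.3 and 97.0 TPM, with overlapping groups. SPC34 lay between 49.4 and 57.5 TPM and SPC19 between 40.1 and 51.2 TPM. DUO1 was lower than these, at 16.4, 16.4, 18.2 and 12.8 TPM. Of these 5 longer members, none had a relative log2 fold change beyond -0.18 or 0.07.

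The other 5 Dam1 transcripts, DAD1, DAD2, DAD3, DAD4 and HSK3, have coding lengths of at most 402 bases and held at most 10 reads in any library. DAD1 had 0, 3, 3 and 5 reads (0, 5.59, 7.51 and 12.8 TPM). A count of 0 allows up to 6.12 TPM in library A, taking 3 reads as the limit, which covers counting error only. Its fitted log2 fold change of 2.23 (limma adjusted p = 0.3187) is set by these few reads: it was 3.87 with a pseudocount of 0.1 and 0.86 without library A (adjusted p = 0.7627; range over the alternatives 0.333 to 0.7627). HSK3 had 2 reads in every library, DAD4 had 6, 8, 7 and 3, and DAD2 had 9, 10, 7 and 3. At this depth a difference between the strains was not detectable for these 5 genes.

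Short genes were low in general in these libraries. The 574 tested genes of at most 402 bases had a median of 18.7, 19.4, 18.6 and 16.4 TPM, against 62.2, 62.7, 55.3 and 53.5 TPM for longer genes. The 5 short Dam1 members had a median of 5.54, 7.46, 7.51 and 6.96 TPM. Per the labels, library fragments were selected by size, and the part of that step in the low values was not tested. Across the 31 members, Spearman's rho of coding length and mean TPM was 0.39, and across the 26 members over 402 bases it was 0.016. Across all tested genes it was 0.16. Genes within 1 set of libraries are not independent, and depth is shared by them.

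**Figure D4:**
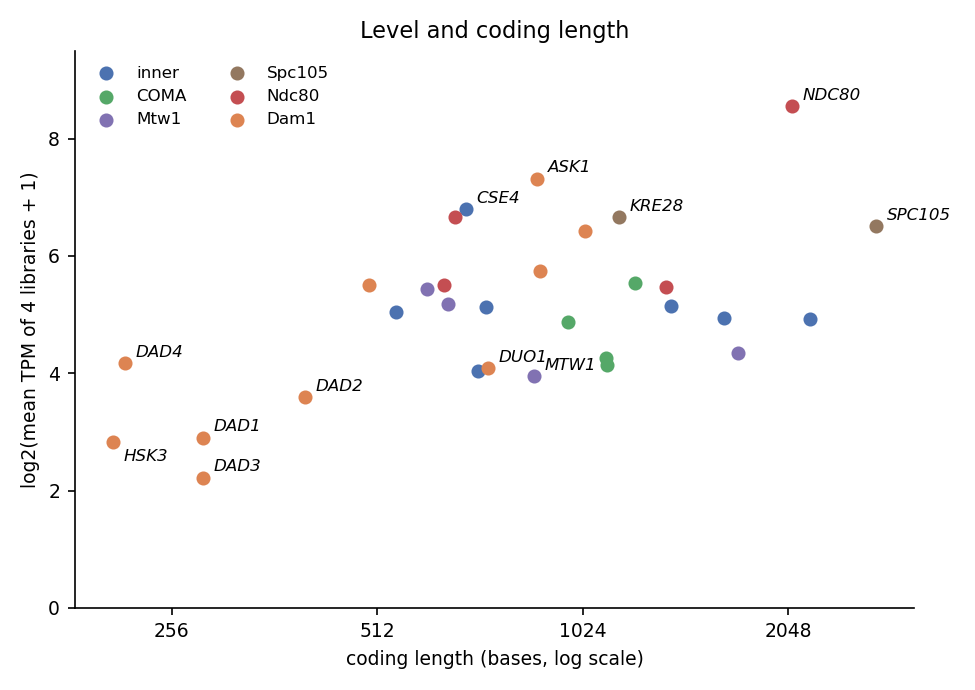
Mean level of the 4 libraries, as log2(TPM + 1), against coding length on a log scale, coloured by subcomplex. The 5 Dam1 members of at most 402 bases lie at the lower left, and across the other 26 members Spearman's rho is 0.016.

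By the median of their members, the subcomplexes kept 1 order in all 4 libraries. The Spc105 complex came first (100.6, 100.2, 85.2 and 95.1 TPM) and the Ndc80 complex second (73.7, 80.8, 74.1 and 63.97 TPM). The inner subunits followed (37.0, 32.5, 29.4 and 26.2 TPM), then the Mtw1 complex (30.8, 28.8, 26.3 and 21.6 TPM). COMA (26.3, 25.8, 24.4 and 19.6 TPM) and the Dam1 complex (16.2, 17.9, 20.5 and 12.8 TPM) came last. The neighbours inner, Mtw1 and COMA lie close together, and each has single members above and below the others' medians.

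The place of 2 subcomplexes depends on which members are counted. With the 5 Dam1 members over 402 bases alone, a choice made after the values were seen, the Dam1 median was 50.4, 57.5, 52.2 and 49.4 TPM. It then stood above the inner, Mtw1 and COMA medians in every library. Without NDC80, the Ndc80 complex had a median of 45.3, 46.6, 44.2 and 47.8 TPM, below the longer Dam1 members in every library. The median relative log2 fold changes between the strains were -0.16 for the inner subunits, -0.12 for COMA, -0.02 for Mtw1, -0.01 for Spc105, 0.09 for Ndc80 and -0.03 for Dam1. With 1 library left out, the medians of the inner subunits, COMA and Ndc80 kept their sign. Those of Mtw1 (0.054 without A, 0.075 without D), Spc105 (0.074 without C) and Dam1 (0.070 without B, 0.023 without C, 0.072 without D) turned positive. These are descriptions of the lists, and no difference between subcomplexes was tested.

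Down the order of mean levels, NDC80 (376.5 TPM) stood above ASK1 (159 TPM) in 4 of 4 libraries, and ASK1 above CSE4 (110.1 TPM) in 4 of 4. CSE4, SPC25 and KRE28 did not keep their order in every library: CSE4 exceeded SPC25, and SPC25 exceeded KRE28, in 3 of 4. DAM1 (84.9 TPM) exceeded SPC34 (52.4 TPM) in 4 of 4. From SPC34 to MTW1 (14.4 TPM) the steps between neighbours were small, and most neighbours changed places in 1 or 2 libraries.

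Other genes of the kinetochore and spindle were taken from 7 lists of 53 genes, of which 52 could be tested. Of these, 0 were called by limma-trend, and 8 had an unadjusted p under 0.05, all lower in ndt80pch2, where 13.1% of all genes were lower at that threshold. The median relative log2 fold change was -0.01. Of the 5 centromere DNA-binding genes, SKP1, also a ubiquitin ligase subunit, was the highest (ndt80, 257 ± 17.0 TPM; ndt80pch2, 222 ± 13.7 TPM; SD, n = 2). CBF1, which binds the first centromere element, had the smallest p of that list (60.0 ± 8.64 and 42.7 ± 3.63 TPM; limma adjusted p = 0.2863).

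Of 9 other inner kinetochore genes, CNN1, the yeast CENP-T, which binds the Ndc80 complex, was the highest by the mean of the 4 libraries, at 64.8, 72.4, 51.9 and 53.2 TPM (limma adjusted p = 0.2863). NKP1 had the smallest p, at 44.6, 41.5, 26.9 and 31.6 TPM (limma adjusted p = 0.2863). PSH1, the ubiquitin ligase for Cse4, was at 57.6, 63.6, 49.1 and 43.7 TPM (limma adjusted p = 0.2967). Of the 9 genes, 4 (these 3 and YBP2) were lower in ndt80pch2 without overlap between the strains, as were 42.4% of all genes.

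Among 6 spindle checkpoint genes, BUB3 was the highest (175, 160.1, 173 and 204 TPM). MAD3 had the smallest p (56.3, 41.9, 36.4 and 35.9 TPM; limma adjusted p = 0.3187). Among the 5 chromosomal passenger and shugoshin genes, SLI15, which activates the Aurora B kinase, was the highest (153, 152, 149 and 164 TPM). IPL1, the Aurora B kinase that is known to take the outer kinetochore apart in meiotic prophase, had the smallest p (80.1, 77.0, 67.9 and 66.9 TPM; limma adjusted p = 0.357). Of the monopolin genes, which join sister kinetochores in meiosis I, CSM1 was the highest (74.1, 106.7, 103 and 98.2 TPM). LRS4 had the smallest p (40.1, 43.3, 33.5 and 32.9 TPM; limma adjusted p = 0.3315), and HRR25 could not be tested because 1 library was not recovered.

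Among 14 genes of microtubules and plus-end factors, TUB1, an alpha-tubulin, was the highest (663 to 811 TPM), though its reads could be split with the near-identical TUB3. BIM1, the yeast EB1, had the smallest p (39.9, 44.7, 26.9 and 28.2 TPM; limma adjusted p = 0.2818). Among the 10 spindle pole body genes MPS3 was the highest (169, 175, 169 and 168 TPM). SPC29 had the smallest p of all 52 genes (58.8, 69.1, 41.2 and 35.5 TPM; relative log2 fold change -0.57, SE 0.15; limma adjusted p = 0.2533).

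The labelled stage was checked against markers. The 10 meiotic prophase genes had a median of 560.5, 605, 562 and 648 TPM, with IME2, the meiotic kinase, as the highest (892 to 1131 TPM). The 10 vegetative division genes had a median of 6.49, 8.81, 7.18 and 8.03 TPM, with CTS1 the highest (40.1 to 70.2 TPM). The 10 haploid and mating genes summed to 94.7, 90.7, 73.8 and 64.8 TPM. MFA1 and MFA2 had 0 reads in all 4 libraries, which does not show absence, since 3 reads are taken as the limit of a 0 count. STE5 was the highest of this list by the mean alone (10.9 to 19.8 TPM), with STE4 above it in libraries B and D. The 15 middle sporulation genes had a median of 48.8, 52.0, 45.6 and 43.3 TPM. ADY2 was the highest of this list (4986 to 6010 TPM). It is an acetate transporter and the medium held 0.3% potassium acetate, so its level is not read here as a sign of the stage. CLB6 was below the level for testing. Genes of this list lay on both sides of the median of tested genes in every library. Examples are SPS2 (203 to 255 TPM) above it and CDC20 (20.7 to 28.1 TPM) below it. None of these marker genes passed limma-trend, and the closest was DMC1, the meiotic recombinase, at 476, 491, 231 and 252 TPM (limma adjusted p = 0.06935; limma-voom adjusted p = 0.0005917). The smallest p of the other lists belonged to SPS2 (limma adjusted p = 0.2967), CTS1 (0.3967) and STE4 (0.3299). The part of these markers in the kinetochore values was not tested.

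The deposited ndt80 column cannot be read row by row for these genes. In printed row order, 0 of the 31 member values could be written as whole reads of the gene in that row, and 31 of 31 could once the second library was taken from the list without its 18 mitochondrial rows. All 31 ndt80pch2 values could be solved as printed. The deposited ndt80 value is a mean over 2 genes from row 94 on, so the NDC80 row (241) holds NDC80 in one library and NEW1 in the other. The HSK3 row (627.8) averages HSK3 with HSP42 and is 118.5 times the recovered HSK3 mean of 5.3 TPM, the largest gap among the members. CTF3 (1054) carries CTR3, and DAM1 (579.6) carries DBP2. Taken row by row, 11 members would be at least 2-fold apart between the strains (30.4% of all genes would), against 1, DAD1, in the recovered means (2.31% of all genes).

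**Figure D5:**
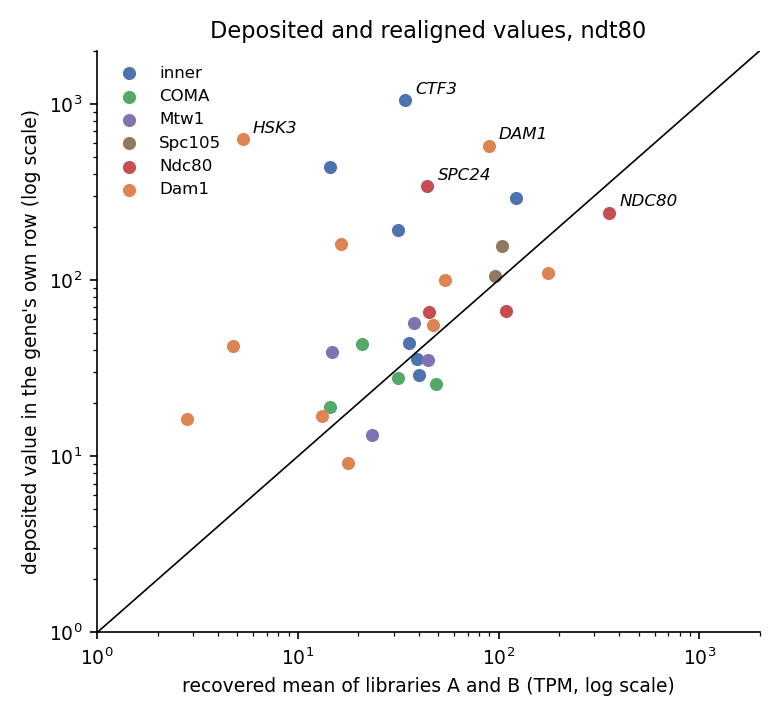
Deposited ndt80 value in the row of each member against the recovered mean of libraries A and B, both on log scales, with the line of equality. HSK3, CTF3, DAM1 and SPC24 lie far above the line and NDC80 below it.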

How the data were processed

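Reads of rRNA-depleted, oligo-dT-enriched RNA were processed with HTSeq 0.9.1, HISAT2 2.1.0, DESeq2 2.11.40.6 and FastQC among the tools named and R64 (sacCer3) as the build, per the submitters' processing notes. The authors deposited 1 unnamed column per strain, on a TPM-like scale inferred here from the values, each the mean of 2 libraries. The steps behind it are not given in the sources used here. Whole reads per library were recovered by solving value times coding length as a sum of whole multiples of 2 steps, within 0.55 of the last printed digit. This solved 99.82% of ndt80pch2 values. Of the ndt80 values from row 94 on it solved 9.19% in printed order and 99.63% after realignment, and 47 of 6664 nuclear genes were left out. Genes with mean TPM of at least 1 (5754) were fitted with limma-trend (limma 3.58.1, R 4.3.3) on log2(TPM + 1), which understates the change of low genes, genotype as the only term. Python 3.11.15, numpy 2.4.6, pandas 2.3.3, scipy 1.17.1 and matplotlib 3.10.9 were used for the rest. Members and gene lists were chosen with earlier results of these data known. Named genes were all members of the Ndc80 complex, the highest and lowest member of each other group, the members of smallest p, and the highest and smallest-p gene of each related list; other members are described where their group is. PCH2 and NDT80 checked the labels. No table columns of unmapped samples were used.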

Additional observations from a re-analysis of the deposited data

How the results depend on the processing

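The count of 0 members called held with a pseudocount of 0.1, no filter, a mean TPM of at least 10, median-of-ratios factors, limma-voom and each library left out; the smallest adjusted p of any member over these was 0.1963. Over all genes, 1 was called, against 25 with no filter, 5 with a mean TPM of at least 10, 26 by limma-voom, and 0 to 1 with 1 library left out (0 without A or without B, where the lone library is assumed to vary like the other strain). The median relative log2 fold change of COMA was -0.15 to -0.0070 with 1 library left out, the nearest to 0 without library D, and the cause was not tested. The same ranges were -0.072 to 0.030 for all members, -0.22 to -0.10 for the inner subunits, -0.16 to 0.075 for Mtw1, -0.105 to 0.074 for Spc105, 0.077 to 0.10 for Ndc80 and -0.052 to 0.072 for Dam1, so 4 of these 7 medians changed sign. Read row by row, where rows mix 2 genes and there is no test, the medians became -0.58 (all members), -1.48 (inner), -0.0063 (COMA), -0.23 (Mtw1), -0.43 (Spc105), -0.029 (Ndc80) and -0.83 (Dam1), and the values of IML3 (0.024), ASK1 (0.42) and DAD1 (-0.56) reversed. No paired analysis was possible because the recovered libraries carry no replicate numbers. Depth limits the 9 members with under 20 reads in a library, and the reference is S288C, not SK1.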

Other observations

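The genes next to NDC80 on chromosome IX did not share its level. PAN6, whose near end lies 790 bases upstream on the other strand, was at 21.9, 16.6, 21.5 and 19.6 TPM in libraries A to D. SSL2, 360 bases downstream on the other strand and a subunit of transcription factor TFIIH, was at 151, 152, 130 and 133 TPM. ATG32, beyond PAN6, was at 129.8, 152, 126 and 142 TPM. NDC80 exceeded all 3 in every library. The limma adjusted p-values between the strains were 0.8267 for PAN6, 0.3282 for SSL2 and 0.7798 for ATG32.

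BBP1 and SPC42, spindle pole body genes, lay beside SPC29 among the related genes with an unadjusted p under 0.05. BBP1 was at 26.1, 21.6, 13.6 and 15.8 TPM and SPC42 at 38.9, 33.1, 23.5 and 22.1 TPM, higher in both ndt80 libraries than in either ndt80pch2 library (limma adjusted p = 0.2863 for both). The spindle pole body list as a whole had a median relative log2 fold change of -0.14, and 7 of its 10 genes were lower in ndt80pch2 without overlap (42.4% of all genes were).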
